A study of Mus musculus with 3 samples.

Results

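The genes described here modify or fold newly made collagen chains in the endoplasmic reticulum. They were chosen by symbol and are the 3 prolyl 4-hydroxylase subunits P4ha1, P4ha2 and P4ha3, the prolyl 3-hydroxylation pair P3h1 and Crtap, the chaperones Serpinh1 and Fkbp10, and the 3 lysyl hydroxylases Plod1, Plod2 and Plod3. All 10 had exactly 1 entry among the 32288 features of the count matrices. Their RNA was counted in single cells of mouse patellar tendon, in 1 library of mice aged 2 weeks and 2 libraries of mice aged 20 weeks, called replicates 1 and 2. All animals were labelled wild type with no treatment named, the tissue was digested with collagenase, and flow sorting was used to leave out blood and endothelial cells. The labels do not give the number or the strain of the animals, so p-values measure only the spread between these libraries.

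A procollagen chain is hydroxylated on many prolines and lysines before it can fold. The prolyl 4-hydroxylases make the triple helix stable at body temperature, the complex of P3h1 and Crtap modifies single prolines and helps folding, and the lysyl hydroxylases prepare the chain for sugar attachment and for cross-links between collagen molecules. Serpinh1 (HSP47) binds the finished helix and escorts it out of the endoplasmic reticulum, and Fkbp10 is a prolyl isomerase that acts with it and with lysyl hydroxylation in the telopeptides. Loss of function in several of these genes causes brittle bones or joint contractures in people. Tendon consists mostly of type I collagen, so the members were also set against Col1a1, which encodes the main chain of that protein.

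On mm10 (GRCm38) the prolyl 4-hydroxylase genes lie at chr10:59323296-59373304 (P4ha1, plus strand), chr11:54100095-54131665 (P4ha2, plus) and chr7:100285520-100319699 (P4ha3, plus). The 3-hydroxylation pair lies at chr4:119232915-119248975 (P3h1, plus) and chr9:114375134-114390675 (Crtap, minus), and the chaperones at chr7:99345376-99353239 (Serpinh1, minus) and chr11:100415697-100424824 (Fkbp10, plus). The lysyl hydroxylases lie at chr4:147909753-147936767 (Plod1, minus), chr9:92542223-92608428 (Plod2, plus) and chr5:136987019-136996648 (Plod3, plus).

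Promoters of 8 members were matched by symbol in the RefSeq promoter table (build GRCm38.p6). Fkbp10 and Plod2 were not matched. The 250 bases before the RefSeq start site are printed for P4ha1, P4ha2 and Serpinh1. The age differences of P4ha1 and P4ha2 in tenocyte-like cells had opposite signs. Serpinh1 was lower at 20 weeks in both tenocyte-like and progenitor-like cells. The P4ha2 window lies inside the P4ha2 interval given above, because its RefSeq start site is past the first base of that interval. Capitals mark the core letters of hypoxia response elements, ACGTG or GCGTG on either strand, which read CACGT or CACGC on the other strand.
P4ha1, chr10:59323046-59323295, plus strand: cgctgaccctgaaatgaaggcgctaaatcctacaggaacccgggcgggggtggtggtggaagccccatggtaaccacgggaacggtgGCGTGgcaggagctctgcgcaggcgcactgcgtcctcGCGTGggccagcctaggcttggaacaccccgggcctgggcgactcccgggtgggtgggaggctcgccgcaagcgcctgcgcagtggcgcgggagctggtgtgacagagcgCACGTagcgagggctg
P4ha2, chr11:54100674-54100923, plus strand: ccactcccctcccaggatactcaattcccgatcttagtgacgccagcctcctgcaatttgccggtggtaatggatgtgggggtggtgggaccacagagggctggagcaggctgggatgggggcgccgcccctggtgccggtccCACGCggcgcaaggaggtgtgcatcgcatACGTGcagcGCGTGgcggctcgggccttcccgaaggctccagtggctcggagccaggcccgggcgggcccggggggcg
Serpinh1, chr7:99353240-99353489, minus strand: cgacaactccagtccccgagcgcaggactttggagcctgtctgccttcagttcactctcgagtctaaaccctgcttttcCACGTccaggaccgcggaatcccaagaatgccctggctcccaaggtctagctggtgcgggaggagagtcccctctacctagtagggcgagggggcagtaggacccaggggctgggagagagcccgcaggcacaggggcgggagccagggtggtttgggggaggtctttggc
The P4ha1 and P4ha2 windows each held 1 ACGTG and 2 GCGTG cores, and the Serpinh1 window held 1 ACGTG core. Of 32851 promoter windows of the same length, 16.6% held ACGTG and 28.2% held GCGTG. A match or its absence describes these letters only.

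After filters on depth and doublets, 4739, 606 and 1006 cells were used from the 2-week library, replicate 1 and replicate 2, with 32310761, 1793130 and 5412417 unique molecular identifiers (UMIs, 1 per captured RNA molecule). Each library was clustered on its own without the members and Col1a1 among the clustering genes, and clusters were named from markers. Tenocyte-like cells, the fibroblasts that build tendon, were named from Tnmd, Scx, Fmod, Kera and Thbs4 and numbered 660, 144 and 109. Marker levels, as UMIs scaled to the total UMIs of the class (CPM), differed between the 2-week library, replicate 1 and replicate 2. Tnmd stood at 8180, 252 and 1482 CPM and Kera at 1660, 259 and 168. Comp, a further marker, stood at 643, 9018 and 3968 CPM. At 20 weeks Mkx was also lower, Fmod and Thbs4 were higher and Scx lay on both sides. How far this bears on the age differences was not tested. Progenitor-like cells, named from Cd55, Cd248, Pi16 and related genes, numbered 884, 110 and 201. Mural-like cells of vessel walls numbered 665, 46 and 38. Acta2 stood at 28833, 21557 and 2049 CPM there and Kcnj8 at 140, 197 and 2037 CPM. Mural-like cells of replicate 2 thus differed from those of the other libraries in these mural markers. Between libraries 2, 3 and 0 cell barcodes were shared among all those deposited. The 3 classes were each made of 2 clusters at 2 weeks and 1 cluster in each 20-week library. Osteogenic-like (152 cells), chondrocyte-like (255), adipogenic-like (116) and Schwann-like (23) cells took a name in the 2-week library alone. Despite the sort, 68 cells of replicate 2 were B lineage-like. EGFP, a transgene in the feature list, was among the leading genes of the tenocyte-like cluster of replicate 1 although the label is wild type.

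**Figure D1:**
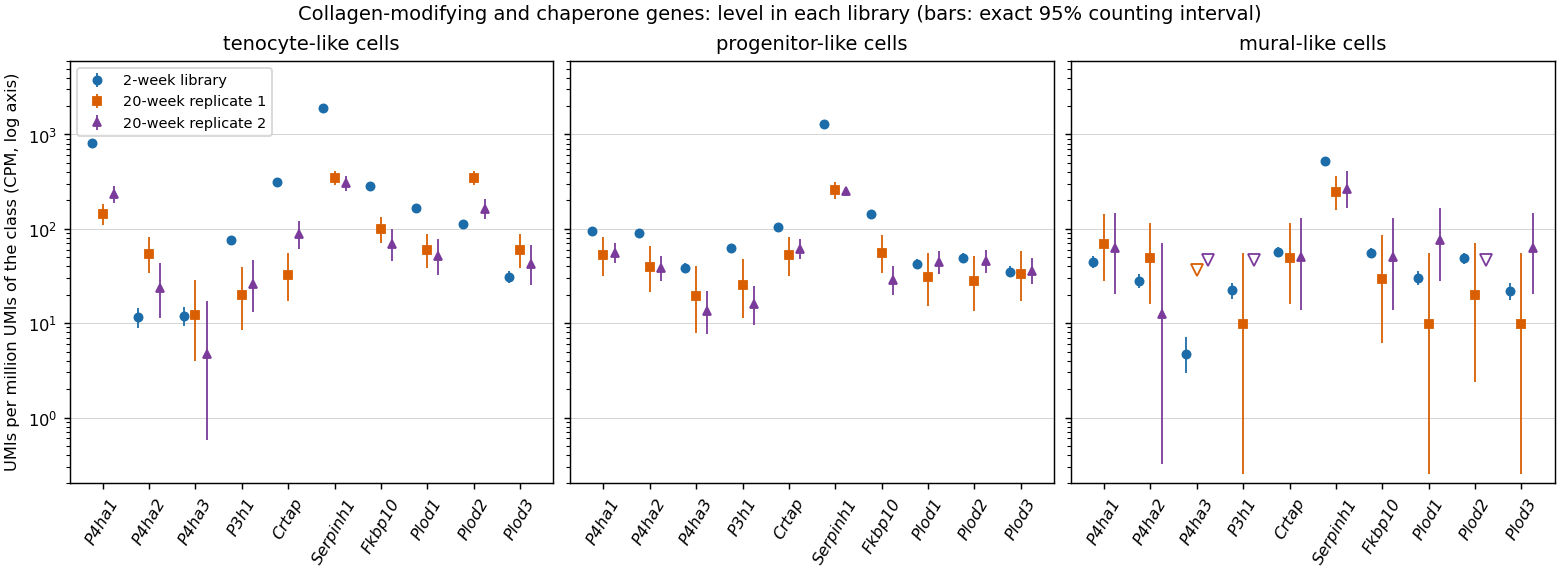
Level of each of the 10 genes in tenocyte-like, progenitor-like and mural-like cells, as UMIs scaled to the total UMIs of the class (CPM, log axis), 1 point per library with its exact 95% counting interval; open triangles mark the upper limit where no UMI was counted. Serpinh1 is the highest of the 10 in each of these classes and libraries, with Plod2 at 343 CPM close to its 346 CPM in tenocyte-like cells of replicate 1, and mural-like values at 20 weeks rest on 0 to 25 UMIs.

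P4ha1, the catalytic subunit of the main prolyl 4-hydroxylase, was lower at 20 weeks in tenocyte-like cells, and P4ha2, its paralog, was not. UMIs count transcript ends and do not scale with gene length, although capture can differ between genes. P4ha1 stood at 815 CPM (UMIs scaled to the total UMIs of the class) at 2 weeks, at 143 in replicate 1 and at 232 in replicate 2. Both 20-week values lay below the 2-week value, and P4ha1 fell (edgeR log2 change -2.33 with SE 0.76, adjusted p = 0.0450). This call held in 4 of the 7 alternative settings that gave a test. P4ha2 stood at 11.5 CPM at 2 weeks and at 54.3 and 23.6 CPM at 20 weeks, from 67, 22 and 10 UMIs. Both 20-week values lay above the 2-week value, and the difference did not pass the test (log2 1.59, SE 0.68, adjusted p = 0.227). P4ha3 had 69, 5 and 2 UMIs, which at 2 weeks was level with the 67 of P4ha2, and was too low to be tested in this class. P4ha2 passed the filter on low counts through its 20-week values.

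The adjusted p-values are from edgeR's quasi-likelihood test on UMI sums per library, adjusted by Benjamini-Hochberg over all genes tested. In tenocyte-like cells 4 of the 9 members tested fell and 0 rose, where 4.7% of the 6026 genes tested were called, 2.21% lower and 2.49% higher. The median log2 change was -1.93 over these 9 members and 0.07 over all genes tested. With 1 library at 2 weeks the fit had 1 residual degree of freedom, took its spread almost wholly from what all genes share, and assumes that the 2-week library varies like the 20-week ones. Fewer members fell under 5 alternatives, with 3 by DESeq2, 3 with no filter on low counts, 2 under stricter cell filters, 1 at clustering resolution 1.0 and 0 with the libraries clustered together.

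The share of P4ha1 among the UMIs of the 3 subunits in tenocyte-like cells was 97.2% at 2 weeks (exact 95% interval 96.7 to 97.7), 68.2% in replicate 1 (57.2 to 77.9) and 89.1% in replicate 2 (81.7 to 94.2). These intervals cover counting error only. P4ha2 made up 1.37%, 25.9% and 9.09% of the same UMIs. In progenitor-like cells the subunits were nearer to each other, with P4ha1 at 42.3%, 47.5% and 51.6% and P4ha2 at 40.6%, 35.0% and 35.9%. Osteogenic-like cells had 603 UMIs of P4ha1, 78 of P4ha2 and none of P4ha3.

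In progenitor-like cells P4ha1 stood at 94.9, 53.0 and 55.5 CPM in the 2-week library, replicate 1 and replicate 2 (log2 -0.82, SE 0.47, adjusted p = 0.647). P4ha2 stood at 91.0, 39.0 and 38.7 CPM (log2 -1.26, SE 0.47, adjusted p = 0.161). P4ha3 stood at 38.5, 19.5 and 13.4 CPM (log2 -1.34, SE 0.53, adjusted p = 0.223). All 3 were lower in both 20-week libraries without passing the test. P4ha2 thus had opposite signs in these classes, which the test of the difference below addresses.

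P4ha1 was also the subunit most unevenly spread within the 2-week tenocyte-like class. Its level was 985 CPM in the larger of its clusters (448 cells, with P4ha1 and Col1a1 themselves among its leading genes beside Angptl7 and Kera) and 257 CPM in the smaller one (212 cells, led by Col22a1, Ptx4 and Chodl). The smaller cluster was close to the 232 CPM of replicate 2 and above the 143 CPM of replicate 1. Col1a1 differed in the same way, at 97498 and 26612 CPM, whereas Serpinh1 was at 1921 and 1810 CPM and P4ha2 at 11.2 and 12.5 CPM. How much of the age difference of P4ha1 reflects these clusters was not tested.

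The share of cells with a UMI followed the same order for P4ha1. It was 82.6% of tenocyte-like cells at 2 weeks, 34.0% in replicate 1 and 42.2% in replicate 2, and 40.6%, 9.72% and 18.3% once each cell was thinned to 1000 UMIs. Among the B lineage-like cells of replicate 2, 1 of 68 (1.47%) had a P4ha1 UMI both before and after thinning. Their median depth was 4512 UMIs against 3796 in tenocyte-like cells of that library. P4ha2 was seen in 6.82%, 13.2% and 8.26% of tenocyte-like cells. After thinning these shares were 0.909%, 4.86% and 0%, so the P4ha2 levels rest on few molecules.

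P3h1 and Crtap, which form 1 complex, were both lower at 20 weeks in tenocyte-like cells. P3h1 stood at 76.8, 19.8 and 26.0 CPM in the 2-week library, replicate 1 and replicate 2 and fell (log2 change -1.95 with SE 0.61, adjusted p = 0.0357). Crtap, the cartilage-associated helper protein without enzyme activity of its own, stood at 310, 32.1 and 87.4 CPM and fell (log2 change -2.60 with SE 0.68, adjusted p = 0.00497). The 20-week values were based on 8 and 11 UMIs for P3h1 and on 13 and 37 for Crtap. DESeq2 gave an adjusted p of 0.632 for P3h1 and 0.0429 for Crtap. Of the 7 alternatives that gave a test, the P3h1 call held in 2 and the Crtap call in 6. Replicate 1 was the lowest library for both genes.

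In progenitor-like cells P3h1 fell to 25.1 and 16.0 CPM in replicates 1 and 2, from 62.0 CPM at 2 weeks (log2 change -1.72 with SE 0.51, adjusted p = 0.0243). Crtap went from 104 CPM to 53.0 and 61.4, which missed the threshold (log2 -0.87 with SE 0.47, adjusted p = 0.592). Of the 10 members tested in this class 3 fell and 0 rose, where 3.34% of 9428 genes were called, 1.69% lower and 1.65% higher. The members' median log2 change was -1.06 against 0.03 over all genes. The call of P3h1 was lost by DESeq2 (adjusted p = 0.9995), after thinning every sum to the lowest total (log2 -0.87, adjusted p = 0.930) and at resolution 1.0 (adjusted p = 0.0785).

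Serpinh1 was the most abundant member and was lower at 20 weeks in both classes. In tenocyte-like cells it stood at 1895 CPM at 2 weeks and at 346 and 303 CPM in replicates 1 and 2, and fell (log2 change -2.73 with SE 0.78, adjusted p = 0.0137). In progenitor-like cells it stood at 1296, 257 and 249 CPM and fell (log2 change -2.36 with SE 0.55, adjusted p = 0.00133). The 2-week value lay above both 20-week values in each class, and the 20-week libraries were close to each other. The progenitor-like call held in all 6 alternatives that gave a test, with adjusted p from 4.32e-04 to 0.0331. With the libraries clustered together 897 cells were progenitor-like at 2 weeks and 8 and 3 at 20 weeks, against 110 and 201 at 20 weeks when clustered alone, so that setting gave no test of this class. The tenocyte-like call was lost at resolution 1.0 (adjusted p = 0.0955) and with the libraries clustered together (adjusted p = 0.0779).

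Fkbp10 was lower at 20 weeks in both classes and passed the test in progenitor-like cells. There it stood at 142, 55.8 and 28.6 CPM in the 2-week library, replicate 1 and replicate 2 and fell (log2 change -1.86 with SE 0.49, adjusted p = 0.00638). Without replicate 2 this change was -1.23 and without replicate 1 it was -2.39, and it did not pass by DESeq2 (adjusted p = 0.658), with thinned sums (adjusted p = 0.0757) or at resolution 1.0 (adjusted p = 0.0646). In tenocyte-like cells Fkbp10 stood at 282, 98.8 and 68.5 CPM, a difference short of the threshold (log2 -1.93 with SE 0.67, adjusted p = 0.0769). Fkbp10 overlaps Nt5c3b on the opposite strand by 2504 bases, Crtap overlaps 4930520O04Rik and Plod3 overlaps Znhit1. The strand setting of the counting is not given in the sources used here, so reads of these partners may be included.

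The lysyl hydroxylases did not move together, and no age difference of theirs passed the test within either class. Plod1, which acts on lysines of the helix, stood at 168, 59.3 and 52.0 CPM in tenocyte-like cells of the 2-week library, replicate 1 and replicate 2 (log2 -1.78, SE 0.65, adjusted p = 0.107). Plod2, which acts on lysines of the telopeptides that take part in cross-links, stood at 111, 343 and 163 CPM (log2 1.03, SE 0.75, adjusted p = 0.731). Plod3, which also attaches sugars to hydroxylysine, stood at 30.9, 59.3 and 42.5 CPM (log2 0.54, SE 0.61, adjusted p = 0.902). For Plod1 both 20-week values lay below the 2-week value, and for Plod2 and Plod3 both lay above it. Plod2 was least alike in the 20-week libraries, with 139 UMIs in replicate 1 and 69 in replicate 2.

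Among the UMIs of the 3 lysyl hydroxylases in tenocyte-like cells Plod1 made up 54.1% at 2 weeks (51.7 to 56.4) and 12.8% and 20.2% in replicates 1 and 2 (8.40 to 18.5 and 13.1 to 28.9). In progenitor-like cells the 3 genes lay between 27.9 and 49.3 CPM in every library, and their log2 age differences were -0.15 for Plod1, -0.40 for Plod2 and -0.03 for Plod3, with adjusted p of 0.987, 0.968 and 0.996. In osteogenic-like cells of the 2-week library Plod2 reached 904 CPM and made up 83.3% of lysyl hydroxylase UMIs (80.9 to 85.5), while Plod3 was at 27.0 CPM.

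**Figure D2:**
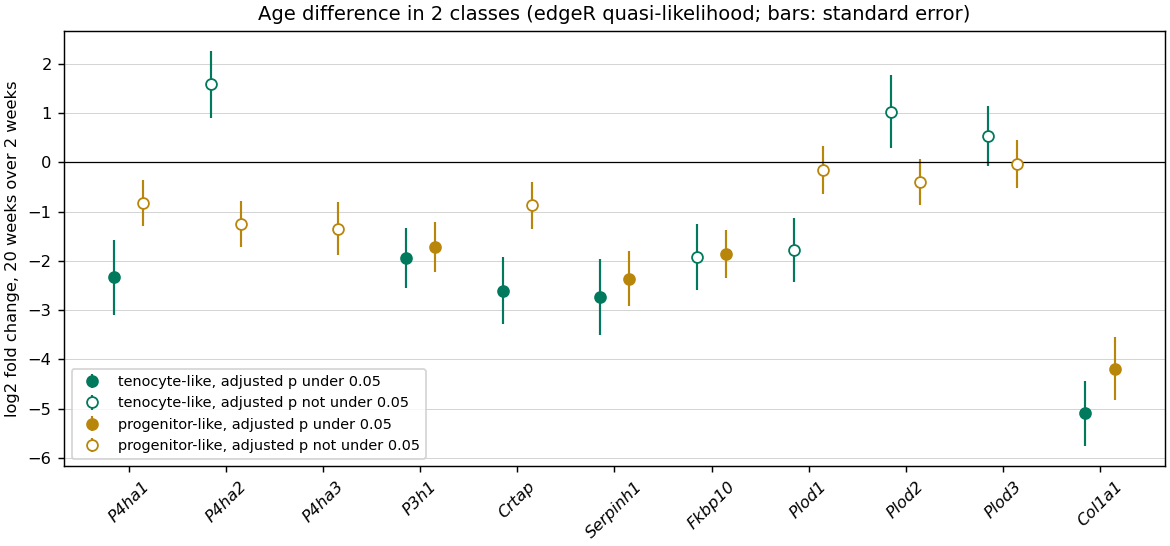
Log2 fold change of 20 over 2 weeks for the 10 genes and Col1a1 in tenocyte-like and progenitor-like cells, with the standard error of edgeR's fit; filled points have an adjusted p under 0.05. Serpinh1 and P3h1 are filled in both classes, P4ha2 lies at 1.59 in the first class and at -1.26 in the second, and Col1a1 lies below all members in both.

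The test of the difference between the age differences of tenocyte-like and progenitor-like cells called 4 of the 10 members, 1 higher and 3 lower. Over all 9230 genes tested, 2.64% were called, 1.93% higher and 0.715% lower. P4ha2 had the most positive value, a log2 difference of 2.62 (SE 0.55, adjusted p = 2.11e-04), being higher at 20 weeks in the former and lower in the latter. P4ha1 (log2 -1.54, SE 0.47, adjusted p = 0.0404), Crtap (log2 -1.75, SE 0.49, adjusted p = 0.0166) and Plod1 (log2 -1.71, SE 0.52, adjusted p = 0.0376) were lower at 20 weeks by more in tenocyte-like cells. Serpinh1 differed by -0.43 (SE 0.42, adjusted p = 0.961). By DESeq2 none of these 4 passed (adjusted p of 0.99998 for each), and without the library block none passed. The P4ha2 call also ended after thinning every sum to the lowest total (adjusted p = 0.317) and at resolution 1.0 (adjusted p = 0.153), and those of P4ha1, Crtap and Plod1 held in no tested alternative other than the fit with no filter on low counts.

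With the class set aside and all cells summed, 0 of the 10 members passed the age test, where 0.144% of 13232 genes were called, 0.121% lower and 0.0227% higher. At an unadjusted p under 0.05 the fit held 1147 genes, and DESeq2 called 192 genes and 1 member. Serpinh1 stood at 1217, 303 and 259 CPM in the 2-week library, replicate 1 and replicate 2 (log2 -2.07, SE 0.62, adjusted p = 0.395), and P3h1 at 57.2, 16.7 and 18.7 CPM (log2 -1.68, SE 0.38, adjusted p = 0.253). The median of the 10 members was -1.30 against 0.04 over all genes. The libraries differed in their other cells: the summed level of 5 muscle fibre genes was 217, 7.81 and 3723 CPM. Without the B lineage-like and muscle gene-led cells 143 genes and again 0 members passed.

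Markers of other cells were low in tenocyte-like cells, where 7 blood lineage genes summed to 8.94, 4.94 and 23.6 CPM with 1, 6 and 4 of them at 0, and 4 endothelial genes to at most 7.09 CPM. The 5 muscle fibre genes summed to 11.7, 7.41 and 68.5 CPM there, with 1, 3 and 1 at 0, and to 12.2, 5.58 and 108 CPM in progenitor-like cells, with 1, 3 and 0 at 0, so replicate 2 was the highest in both. In progenitor-like cells the blood lineage sum was 683 CPM at 2 weeks and 2.79 and 24.4 CPM at 20 weeks, with 3, 6 and 3 genes at 0. The 9 dissociation response genes summed to 6110, 7553 and 6329 CPM in tenocyte-like cells, and in progenitor-like cells to 4317, 8068 and 8103 CPM. Their part in the age differences was not tested.

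Between classes of the same libraries, P4ha1, Fkbp10 and Plod2 were higher in tenocyte-like than in progenitor-like cells. P4ha3 was called lower, but passed the filter on low counts only through progenitor-like cells. Of 7300 genes tested with the library as a block 13.5% were called, 6.18% higher and 7.27% lower, and of the 10 members 3 were higher and 1 lower. The log2 difference of P4ha1 was 2.54 (SE 0.38, adjusted p = 0.00504), with 3.47 at 2 weeks and 1.55 and 2.20 in replicates 1 and 2. That of Plod2 was 2.24 (SE 0.38, adjusted p = 0.00915), with 1.53, 3.72 and 1.98, and that of Fkbp10 was 1.27 (SE 0.21, adjusted p = 0.00831), with 1.36, 0.95 and 1.39. All 3 were higher in tenocyte-like cells of every library. Without the library block P4ha1 and Fkbp10 did not pass (adjusted p = 0.0514 and 0.495).

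P4ha3 was lower in tenocyte-like cells by a log2 difference of -1.20 (SE 0.31, adjusted p = 0.0444). It stood at 11.9, 12.3 and 4.73 CPM there and at 38.5, 19.5 and 13.4 CPM in progenitor-like cells. Only the progenitor-like sums passed the filter on low counts, so the gene was tested through the class where it was high. The call ended by DESeq2 (adjusted p = 0.286), without the library block (adjusted p = 0.439) and without replicate 2 (adjusted p = 0.106). With thinned sums, stricter cell filters, resolution 1.0 or no 2-week library P4ha3 was too low to be tested. P4ha2 was lower in tenocyte-like cells at 2 weeks (log2 -2.54) and differed by 0.60 and -0.54 in replicates 1 and 2, without passing the test (adjusted p = 0.219). Plod1 was higher in tenocyte-like cells of every library and also did not pass (log2 1.47, SE 0.41, adjusted p = 0.0571).

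Against mural-like cells the same 3 genes passed, of 8 members tested, where 14.3% of 5081 genes were called and 7.26% were called higher. The log2 difference was 3.05 for P4ha1 (SE 0.68, adjusted p = 0.0172), 2.65 for Plod2 (SE 0.61, adjusted p = 0.0198) and 2.14 for Fkbp10 (SE 0.45, adjusted p = 0.0133). Fkbp10 did not pass without the 2-week library (adjusted p = 0.232) or without the library block (adjusted p = 0.0733). The Plod2 difference rests on 227, 2 and 0 mural-like UMIs. Plod2 passed the filter on low counts through its tenocyte-like sums, the class where it was high. With sums thinned to the lowest total Fkbp10 and Plod2 were too low to be tested, which left P4ha1 called. Within mural-like cells Serpinh1 was the only member abundant enough for an age test, at 517, 246 and 266 CPM (log2 -1.19, SE 1.24, adjusted p = 0.999), where 0.273% of 2560 genes were called (0.234% higher and 0.0391% lower), 80 had an unadjusted p under 0.05 and DESeq2 called 4. P4ha1 stood there at 44.5, 69.0 and 63.3 CPM from 208, 7 and 5 UMIs, and its counting intervals overlapped.

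The classes named only at 2 weeks add high values. Osteogenic-like cells, which lay down bone matrix, had P4ha1 at 626 CPM, second to the 815 CPM of tenocyte-like cells, with Col1a1 at 75102 CPM. Their Plod2 level of 904 CPM was above the 275 CPM of chondrocyte-like cells and the 111 CPM of tenocyte-like cells, and Plod2 was among the genes leading that cluster. Serpinh1 was 1139 CPM in osteogenic-like, 1307 in chondrocyte-like and 1501 in adipogenic-like cells. Each of these values comes from 1 library, so no spread can be given. At 20 weeks an unnamed cluster led by Cytl1 and holding Ibsp and Spp1 among its leading genes was seen in each library, and its Plod2 level was 301 CPM in replicate 1 (98 cells) and 663 CPM in replicate 2 (45 cells).

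**Figure D3:**
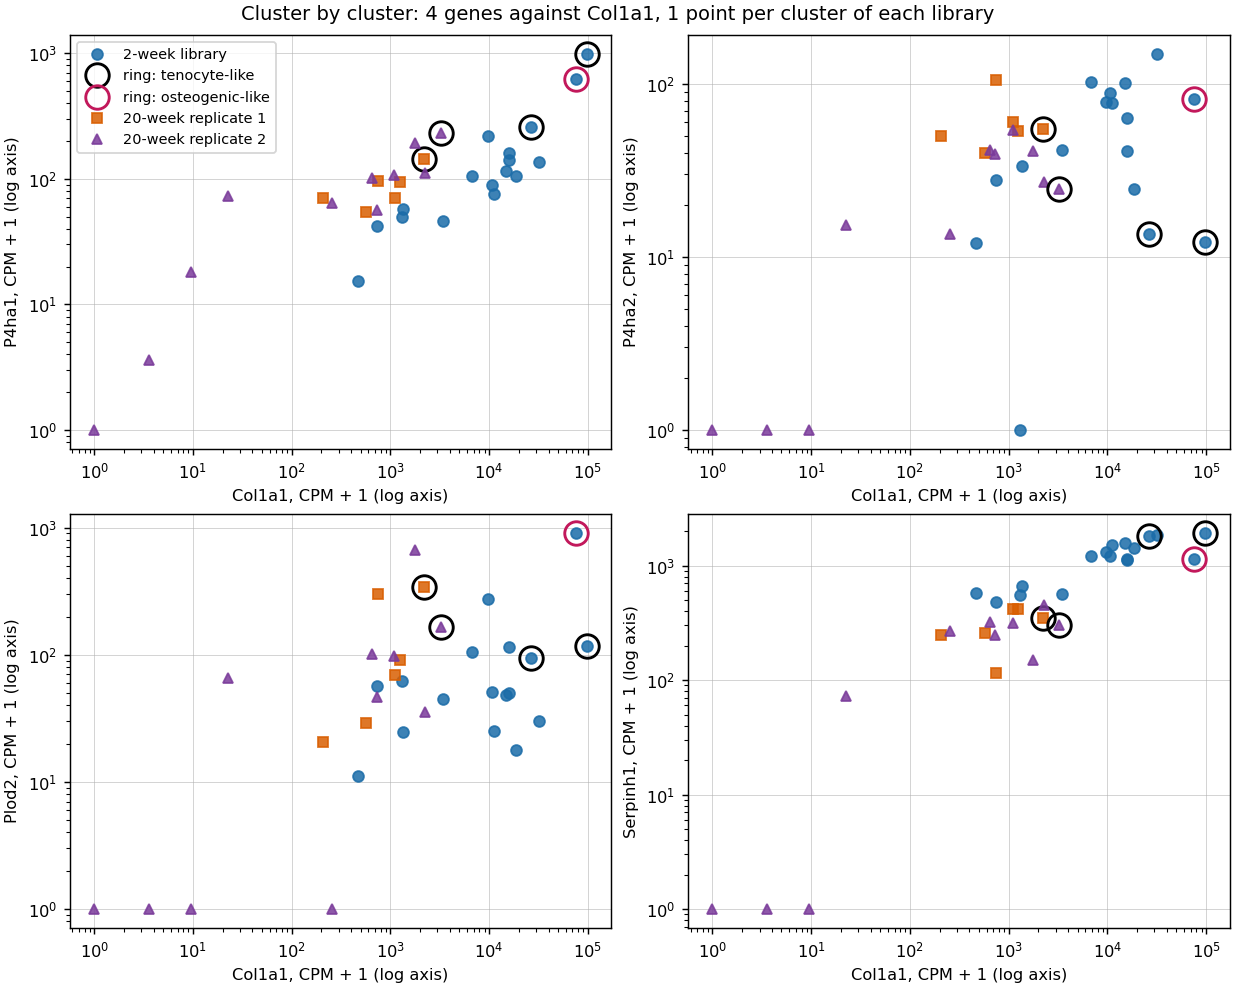
Level of P4ha1, P4ha2, Plod2 and Serpinh1 against that of Col1a1 (CPM + 1, log axes), 1 point per cluster of each of the 3 libraries, with black rings around tenocyte-like and pink rings around osteogenic-like clusters. P4ha1 follows the order of Col1a1 over the 2-week clusters (Spearman 0.87) and P4ha2 does so less (0.24), with the 2-week tenocyte-like clusters at 11.2 and 12.5 CPM of P4ha2.

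Over the 17 clusters of the 2-week library the rank correlation with Col1a1 was 0.88 for Crtap, 0.87 for P4ha1, 0.76 for Serpinh1, 0.73 for Fkbp10, 0.69 for P3h1 and 0.65 for Plod1. It was 0.33 for Plod2, 0.24 for P4ha2, 0.17 for P4ha3 and 0.083 for Plod3. These clusters share 1 library, so the values are a description. Serpinh1 varied least, from 477 to 1921 CPM, and P4ha1 ranged from 14.4 to 985 CPM. Over the 11 clusters of replicate 2 the correlation was 0.93 for both P4ha1 and Fkbp10, 0.87 for Crtap and 0.77 for Serpinh1. It was 0.73 for Plod2, 0.71 for P4ha2, 0.68 for P3h1, 0.58 for Plod1 and Plod3 and 0.57 for P4ha3. The low values of Plod2, P4ha2, P4ha3 and Plod3 at 2 weeks were thus not seen in replicate 2. Over the 6 clusters of replicate 1 Plod2 was highest at 0.83, with Plod1 at 0.77 and P4ha1 and Serpinh1 at 0.60. Plod3 was at 0.49, P4ha2 at 0.43, P4ha3 at 0.37, Fkbp10 and P3h1 at 0.20 and Crtap at -0.49. The order of the 2-week library was not seen there.

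Set against Col1a1, every member had more UMIs per Col1a1 UMI at 20 weeks, but so did nearly all genes. In tenocyte-like cells Col1a1 stood at 80999 CPM at 2 weeks and at 2213 and 3271 CPM at 20 weeks, which is 36.6- and 24.8-fold lower (log2 -5.10, SE 0.66, adjusted p = 1.50e-11). P4ha1 UMIs per 1000 Col1a1 UMIs went from 10.1 (95% counting interval 9.78 to 10.4) to 64.7 (48.8 to 84.5) and 70.8 (57.1 to 87.0). Serpinh1 went from 23.4 (23.0 to 23.8) to 156 (130 to 187) and 92.5 (76.6 to 111). The 20-week intervals of both genes lay above the 2-week interval.

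The ratio was higher in both 20-week libraries for 10 of 10 members in tenocyte-like cells, where the same held for 98.6% of 6018 genes. It also was for 10 of 10 in progenitor-like cells (96.2% of 9414 genes) and in all cells (94.7% of 13176 genes). The members' median fold was 12.9 and 8.03 in tenocyte-like cells of replicates 1 and 2, below the 38.1 and 31.1 of all genes. In progenitor-like cells it was 10.4 and 8.12, against 18.5 and 17.5. The shares near the background say nothing particular about the members.

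Members differed in this ratio within tenocyte-like cells. It was 6.43- and 7.04-fold higher for P4ha1, 6.68- and 3.95-fold for Serpinh1 and 3.79- and 6.98-fold for Crtap, the 3 lowest folds of replicate 1. In replicate 2 Fkbp10 at 6.01-fold was also below P4ha1 and Crtap. For Plod2 it was 113- and 36.3-fold and for Plod3 70.1- and 34.1-fold higher. For P4ha2 it went from 0.142 (0.110 to 0.181) to 24.6 (15.3 to 37.4) and 7.23 (3.46 to 13.3) per 1000 Col1a1 UMIs. P4ha3 reached 5.58 (1.81 to 13.1) and 1.45 (0.175 to 5.23) from 0.146 (0.114 to 0.185), so in replicate 2, with 2 UMIs, the intervals overlap. In progenitor-like cells Serpinh1 had the lowest folds, 4.06 and 3.09, and Plod3 19.6 and 16.6.

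**Figure D4:**
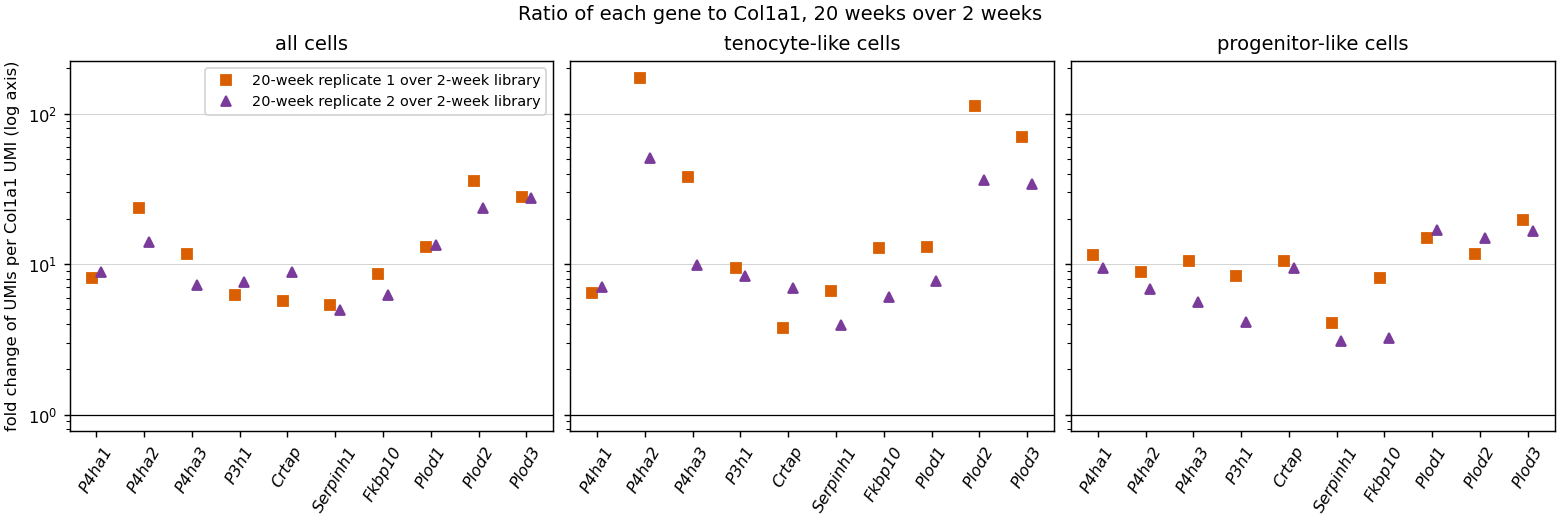
Fold change of the UMIs of each member per Col1a1 UMI, 20 weeks over 2 weeks (log axis), in all cells, tenocyte-like and progenitor-like cells, 1 point per 20-week library and a line at 1. All points lie above the line, from 3.09 for Serpinh1 in progenitor-like cells to 173 for P4ha2 in tenocyte-like cells, where the same direction held for 98.6% of all genes.

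Among other genes of collagen folding and modification, 1 of 18 tested fell in tenocyte-like cells and none rose, where 2.21% of all genes were called lower, with a list median of -0.34 against 0.07 over all genes. It was Fkbp14, another prolyl isomerase of the endoplasmic reticulum at 118, 14.8 and 18.9 CPM (SE of the log2 change 0.66, adjusted p = 3.09e-04). In this class Fkbp14 passed the filter on low counts through the 2-week library alone. In progenitor-like cells 2 of 17 fell, Fkbp14 (log2 -1.84) and P3h4 (adjusted p = 0.0443), with a median of -0.67 against 0.03 and 1.69% of all genes called lower. P4hb, the partner subunit of the prolyl 4-hydroxylases, did not pass in either class (log2 -0.95 and -0.61, adjusted p = 0.761 and 0.933), nor did the cyclophilin Ppib (-1.39 and -0.75) or the general chaperone Hspa5 (0.28 and -0.39). P3h2 and P3h4 were higher in tenocyte-like than in progenitor-like cells (log2 7.07 and 1.25), as was Fkbp9 (1.09), which makes 3 of 18 where 6.18% of all genes were called higher.

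Of the genes of procollagen export 3 of 14 tested fell in tenocyte-like cells, namely Sparc (log2 -3.39), a collagen-binding matrix protein, the retrieval receptor Kdelr3 (-2.92) and the transcription factor Creb3l1 (-2.10). In progenitor-like cells 2 of 16 fell, Sparc (-2.42) and Kdelr3 (-2.04). The list medians were -1.22 and -0.78, against 0.07 and 0.03 over all genes, of which 2.21% and 1.69% were called lower in these classes. Of the fibrillar chains 5 of 10 fell in tenocyte-like cells (Col1a1, Col1a2, Col2a1, Col11a1 and Col11a2) and 5 of 7 in progenitor-like cells (Col1a1, Col1a2, Col3a1, Col5a1 and Col5a2), with medians of -2.12 and -2.93. Of the hypoxia response genes 1 of 12 rose, Ndrg1 (log2 3.34), and 1 fell, Car9. Its 414 UMIs at 2 weeks compare with 0 in either replicate of 20 weeks. Car9 thus passed the filter on low counts through the 2-week library alone. In progenitor-like cells 1 of 13 rose, again Ndrg1 (2.73). The medians of this list were -0.63 and -0.28, and 2.49% and 1.65% of all genes were called higher. None of the genes of ascorbate and cofactor supply passed, with 1 tested in the first class and 3 in the second.

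Over 17 sums of a class in a library, the genes most like each member were found by the Pearson correlation of log2(CPM + 10). Serpinh1 was most like Gpx8 (0.98) and Sparc (0.97), Fkbp10 most like P3h4 (0.97) and Rcn3 (0.96), and P3h1 most like Fkbp14 (0.95) and Ckap4 (0.94). Crtap was most like P3h3 (0.94) and Sec24d (0.91), Plod1 like P3h4 (0.94) and Tspan3 (0.93), and P4ha1 like Pdgfrl (0.92) and Itm2c (0.88). Plod3 was most like Glmp (0.93) and Tmx2 (0.92), P4ha2 like Tspan4 (0.89) and Col6a2 (0.85), and Plod2 like Fibin (0.89) and Fzd8 (0.88). P4ha3 was under the level of 20 CPM asked for. Among members, Serpinh1 and Fkbp10 were the most alike pair (0.96) and P4ha2 and Plod3 the least (0.35). The sums share libraries and depth, so these values are a description.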

How the data were processed

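Members and lists were chosen with earlier results of these data known. The deposited UMI counts were made with Cell Ranger 6.1.2, per the submitters' processing notes, as 1 matrix per library on mm10. Cells with at least 500 genes, 1000 UMIs and at most 10% mitochondrial UMIs were kept, and the barcodes with the highest simulated-doublet scores (225, 3 and 9) were left out. Each library was clustered alone (scanpy 1.11.5, leidenalg 0.10.2, 2000 variable genes without the members, 30 components, resolution 0.5). A cluster was named with at least 2 markers among its 20 leading genes and 3 detected, a rule set after cluster markers were seen; 1844, 306 and 522 cells stayed unnamed. Counts were summed per library and class and tested with edgeR 4.0.16 (TMM, quasi-likelihood, Benjamini-Hochberg, threshold 0.05). Genes under a filter on low counts were not tested. A gene could pass that filter through the 2-week library alone in age tests, and through 1 class alone in tests between classes. A check on simulated counts used 1 fixed spread for all genes, so it does not show how the test performs at the spread of these data. DESeq2 1.42.0 was an alternative. Named were all members, Col1a1, Col1a2, P4hb, Ppib, Hspa5, up to 8 pathway genes past the threshold per comparison by size of change, and the 2 genes most like each member. Aldoa was left out because its symbol is shared. Intervals are exact and cover counting error only.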

Additional observations from a re-analysis of the deposited data

Results flagged for a closer look

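The age difference of 4 members differed between tenocyte-like and progenitor-like cells in edgeR's test of the difference. The log2 difference, tenocyte-like minus progenitor-like, was -1.54 for P4ha1, 2.62 for P4ha2, -1.75 for Crtap and -1.71 for Plod1. The value of P4ha2 rests on 67, 22 and 10 UMIs in tenocyte-like and 589, 14 and 46 UMIs in progenitor-like cells.

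The P4ha1 values of both 20-week libraries lay above the 2-week value in mural-like cells and below it in the other 2 classes. In mural-like cells the counting intervals of the 3 libraries overlap, and in progenitor-like cells the age difference did not pass edgeR's test (adjusted p = 0.647). The log2 CPM ratio of 20 to 2 weeks was 0.63 and 0.51 in mural-like cells of replicates 1 and 2, against -2.51 and -1.82 in tenocyte-like and -0.84 and -0.77 in progenitor-like cells. The mean of mural-like cells was higher by 2.73 than that of tenocyte-like and by 1.38 than that of progenitor-like cells. These differences were not tested, and the mural-like values rest on 7 and 5 UMIs at 20 weeks. Mural-like cells of replicate 2 also differed in Acta2 and Kcnj8 from those of the other libraries.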

How the results depend on the processing

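Every fit rests on 1 library of 2 weeks, and the spread it uses is mostly shared across genes. Of 498 member fold changes under an alternative, 419 kept direction and, where an adjusted p was given, side of the threshold. Values with no adjusted p were counted among these on direction alone. Of the others, 46 lost and 20 gained a call, and 13 changed sign. Of 160 member levels, 159 stayed within their counting interval. Of 140 ratio changes, 85 moved by less than 1 SD and none changed sign. No paired analysis was possible because the labels pair no 2-week library with a 20-week library. Leaving out a 20-week replicate leaves no residual degree of freedom for age, so those values have no test. Where a result moved, the cause was not tested.

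The number of genes called for age in all cells (19) was 192 by DESeq2, 701 with no filter on low counts, 59 with stricter cell filters, 143 without B lineage-like and muscle cells and 0 with sums thinned to the smallest, where 814 had an unadjusted p under 0.05 in edgeR. Members called lower there were 1 by DESeq2 and 2 with no filter. In tenocyte-like cells (283) it was 136 by DESeq2, 174 at resolution 1.0 and 108 with libraries clustered together, with 1 and 0 members lower in the last 2, and 2 members lower under stricter cell filters. In progenitor-like cells (315) it was 70 by DESeq2, 125 thinned, 160 at resolution 1.0 and 207 with the members and Col1a1 among the variable genes, with 1 member lower by DESeq2 and 1 at resolution 1.0. In mural-like cells (7) it was 4 by DESeq2, 4 clustered together and 0 thinned, where 64 had an unadjusted p under 0.05 in edgeR.

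For tenocyte-like against progenitor-like cells (982) it was 2164 with no filter, 553 thinned and 422 without the library block; leaving out 1 library gave 584 to 1559, the lowest without the 2-week library and the highest without replicate 1. Members higher were 5 with no filter and 1 without the block, and 3 to 5 leaving out 1 library. Members lower were 2 with no filter, 0 by DESeq2, thinned, under stricter cell filters, at resolution 1.0 and without the block, and 0 to 2 leaving out 1 library. For tenocyte-like against mural-like cells (728) it was 1909 with no filter, 272 thinned and 589 to 1929 leaving out 1 library, the highest without replicate 2 and 1385 without replicate 1. Members higher were 6 with no filter, 1 thinned and 2 to 7 leaving out 1 library. For the difference between age differences (244) it was 31 by DESeq2, 36 thinned, 126 under stricter cell filters, 16 at resolution 1.0 and 0 without the library block, where 277 had an unadjusted p under 0.05 in edgeR. Members higher were 0 by DESeq2, thinned, at resolution 1.0 and without the block. Members lower were 0 in those 4, under stricter cell filters and with the members among the variable genes.

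Signs changed for small values. The age difference in all cells was 0.029 for P4ha2 thinned and from -0.88 to 0.35 leaving out a replicate, and -0.12 for Plod2 without replicate 1. In progenitor-like cells it was 0.025 for Plod1 and 0.051 for Plod3 at resolution 1.0, and from -0.055 to 0.042 for Plod3 leaving out a replicate. Leaving out 1 library, P4ha2 in tenocyte-like cells differed by -2.05 to 0.025 from progenitor-like and by -0.57 to 0.54 from mural-like cells, the highest without the 2-week library in both, and by 0.070 from mural-like cells without the block. The difference between age differences was 0.93 for P3h1 thinned, 0.098 for Fkbp10 at resolution 1.0 and, leaving out a replicate, -0.90 to 0.095 for P3h1 and -0.011 to 0.76 for P4ha3. The stricter-filter fit in mural-like cells and the jointly clustered fits with progenitor-like cells were not run, since a library had under 20 cells. Clustering the libraries together, leaving out the 2-week library and leaving out B lineage-like and muscle cells were chosen after seeing the data.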
